A study of Homo sapiens with 23 samples.

Results

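Acetylation of histone H3 at K18 (H3K18ac) and of histone H4 at K12 (H4K12ac) was compared in SW480 cells, a colorectal adenocarcinoma line, treated with 1 mM sodium butyrate (NaBu) for 12 to 16 h. The libraries were chosen by their labels and were 4 of the 23 libraries of the series, 2 for each acetylated site. Each came from chromatin immunoprecipitation with an antibody against the mark followed by sequencing (ChIP-seq), and the data are lists of enriched regions, 1 list per library. The other libraries used here were H3K18ac and H4K12ac of untreated cells (2 each), the same marks in cells given 10 mM sodium propionate (NaPr, 2 each), butyrylated H3K18 and H4K12 (H3K18bu and H4K12bu, 2 each) in NaBu, and the input chromatin of NaBu cells (1 library, no immunoprecipitation). The labels do not say whether the 2 replicates of a group came from separate cultures, so the p-values measure the spread between libraries, which may be technical. The deposited lists of these 4 libraries carry in their names the tag of the untreated lists, whereas their sample labels give NaBu. The labels were followed.

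Acetylation removes the positive charge of a lysine, loosens the contact of the histone tail with DNA and creates binding sites for bromodomain proteins. H3K18ac is laid down mainly by the coactivators CBP and p300 and marks active promoters and enhancers. H4K12ac is one of the acetylated positions of the H4 tail, is found on newly made histones as well as on active genes, and is bound together with its neighbours by bromodomain proteins such as BRD2. Butyrate is both an inhibitor of histone deacetylases and a source of acyl groups, and reaches high levels in the colon.

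The list of H4K12ac replicate 2 was the shortest, with 11680 regions, against 88658 in H4K12ac replicate 1 and 116459 and 60344 in the H3K18ac replicates. The 4 libraries were therefore compared on their 11680 strongest regions by −log10 p, here called equal numbers. At this limit the last region had a −log10 p of 12.1 and 9.08 in H3K18ac replicates 1 and 2, of 5.995 in H4K12ac replicate 1 and of 2.00 in H4K12ac replicate 2, where the whole list was used. The median fold enrichment over local background was 10.3 and 8.30 with H3K18ac, against 5.61 and 3.44 with H4K12ac. The read depth of each library relative to its control was estimated from the step between neighbouring pileup heights. It was 1.33, 2.24, 1.17 and 5.06 in the same order. Which control library was given to each list is not stated, so the controls may differ. H4K12ac replicate 2 thus had the shortest list at the largest estimated relative depth. Its part in the results was examined by leaving it out, with the limit of 11680 regions kept. Its part through that limit, which its list had set, was not examined in this way. Of the colon epithelial markers, EPCAM, KRT8, KRT18, KRT19 and CLDN4 had an acetylated promoter in all 4 libraries, whereas KRT20, CDH17, CDX2, CEACAM5 and GPA33 had no region with a summit there in any list. Of 16 markers of other cell types, 14 had no promoter summit at equal numbers in any of the 4 libraries, and none was held by all 4.

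Regions held at equal numbers with one acetylation and not with the other carry the comparison. Most of them touched a region in a full list of the other site (below). Shown are 8 windows of 200 bp centred on summits of such regions, because the base composition of the 2 sets differed. All are on the plus strand of hg38, in lower case with each CpG dinucleotide in capitals, and come from regions held by both replicates of one site and by neither replicate of the other. They were among the strongest of each site and placement whose window touches no annotated untranslated region, with a second promoter window for each site (for H3K18ac the next one outside an exon). The FXYD2 window also lies in an intron of FXYD6-FXYD2, the PPP1R1C window in an intron of PPP1R1C, and the CAMK2D and TM7SF3 windows outside annotated genes.
H3K18ac-only, FXYD2 promoter (chr11:117828934-117829133): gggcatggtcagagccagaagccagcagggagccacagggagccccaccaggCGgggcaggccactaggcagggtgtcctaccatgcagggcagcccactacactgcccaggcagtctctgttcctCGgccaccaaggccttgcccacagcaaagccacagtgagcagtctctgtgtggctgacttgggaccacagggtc
H3K18ac-only, CAMK2D promoter (chr4:113762322-113762521): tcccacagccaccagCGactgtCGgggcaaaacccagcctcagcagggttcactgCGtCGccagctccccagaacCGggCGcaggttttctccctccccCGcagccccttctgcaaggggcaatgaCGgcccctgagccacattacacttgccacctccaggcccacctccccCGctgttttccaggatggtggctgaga
H3K18ac-only, SRMS intron (chr20:63545520-63545719): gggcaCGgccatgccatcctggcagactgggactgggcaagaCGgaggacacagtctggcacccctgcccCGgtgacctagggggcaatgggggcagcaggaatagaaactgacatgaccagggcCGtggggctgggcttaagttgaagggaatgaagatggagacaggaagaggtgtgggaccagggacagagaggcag
H3K18ac-only, between genes near FOXJ2 (chr12:8026895-8027094): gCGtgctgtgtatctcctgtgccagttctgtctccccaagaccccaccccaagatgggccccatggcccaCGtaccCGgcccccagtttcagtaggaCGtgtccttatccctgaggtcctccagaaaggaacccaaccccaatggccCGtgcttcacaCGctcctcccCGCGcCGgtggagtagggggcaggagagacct
H4K12ac-only, PPP1R1C promoter (chr2:181954884-181955083): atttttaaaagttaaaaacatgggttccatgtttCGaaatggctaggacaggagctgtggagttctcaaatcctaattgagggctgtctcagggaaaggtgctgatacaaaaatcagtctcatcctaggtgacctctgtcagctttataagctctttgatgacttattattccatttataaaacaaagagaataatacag
H4K12ac-only, TM7SF3 promoter (chr12:27014810-27015009): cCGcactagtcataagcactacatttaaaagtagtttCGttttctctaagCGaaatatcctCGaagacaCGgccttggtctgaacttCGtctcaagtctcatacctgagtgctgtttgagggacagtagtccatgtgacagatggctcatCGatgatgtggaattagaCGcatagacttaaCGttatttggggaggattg
H4K12ac-only, SPTLC1 intron (chr9:92097813-92098012): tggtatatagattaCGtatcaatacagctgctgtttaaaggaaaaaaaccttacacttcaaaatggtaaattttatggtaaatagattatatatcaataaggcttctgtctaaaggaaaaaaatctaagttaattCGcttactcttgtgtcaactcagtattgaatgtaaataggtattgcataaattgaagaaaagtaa
H4K12ac-only, between genes near LINC02563 (chr17:65434389-65434588): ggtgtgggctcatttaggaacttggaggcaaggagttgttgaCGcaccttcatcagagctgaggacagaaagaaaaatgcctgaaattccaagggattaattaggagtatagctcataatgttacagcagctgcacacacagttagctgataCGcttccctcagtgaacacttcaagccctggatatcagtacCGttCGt
The GC share of the 4 H3K18ac-only windows was 65.0, 65.0, 62.0 and 63.5%, and that of the 4 H4K12ac-only windows was 37.0, 44, 27.5 and 46.0%. The former held 2, 9, 4 and 9 CpG dinucleotides and the latter 1, 9, 2 and 4. None of the 8 windows held a match to the 7 motifs searched (below). Windows not shown differed less. The H3K18ac-only promoter window passed over for its exon and the next H4K12ac-only promoter window each had a GC share of 53.0%.

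H3K18ac regions lay at promoters more often, and H4K12ac regions in gene bodies. Promoter here means a summit, the base of highest enrichment in a region, no more than 1 kb from where an annotated gene, protein-coding or lncRNA, begins. The share of summits at promoters was 45.6 and 37.6% in the H3K18ac replicates and 27.6 and 31.2% in the H4K12ac replicates, so that both H3K18ac libraries lay above both H4K12ac libraries. The means were 41.6% ± 5.62 (SD, n = 2) and 29.4% ± 2.57, a difference of 12.2 percentage points. Summits inside gene bodies made up 37.6 and 42.2% for H3K18ac against 50.3 and 48.1% for H4K12ac, and the H4K12ac libraries were again apart from the H3K18ac libraries. Intergenic summits made up 16.8 and 20.2% against 22.1 and 20.7%, with a gap between the nearest libraries smaller than the spread of the H3K18ac pair. In an exact permutation test of 2 libraries against 2 (two-sided) each of these differences had p = 0.33, the smallest that 6 arrangements can give.

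**Figure D1:**
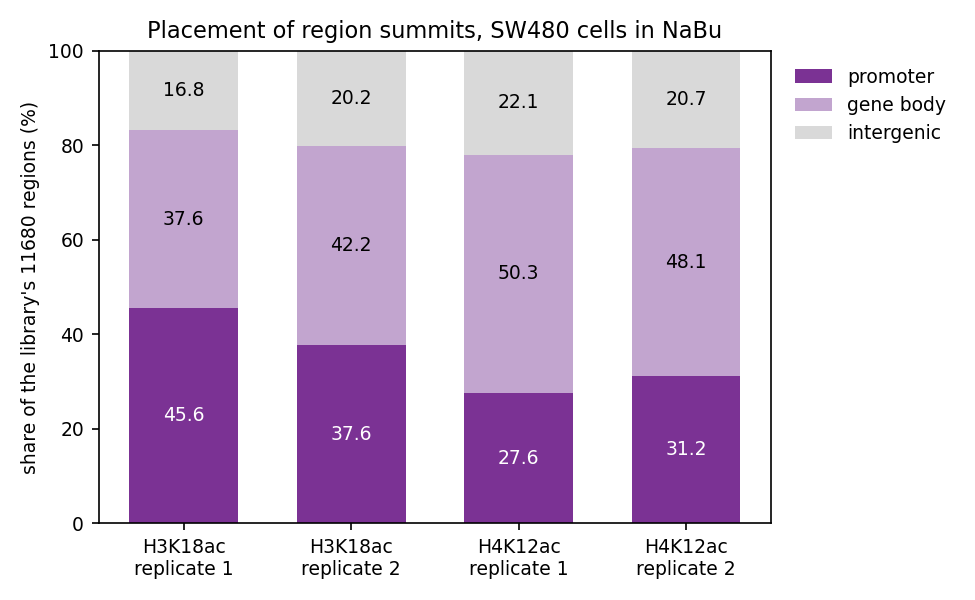
Stacked bars give the share (%) of the 11680 strongest regions of each NaBu library whose summit lies at a promoter, in a gene body or between genes, with no error bars since each bar is 1 library. The promoter part is 45.6 and 37.6% in the H3K18ac replicates and 27.6 and 31.2% in the H4K12ac replicates.

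The direction depended on the use of equal numbers. Over all deposited regions the promoter share was 16.6 and 21.9% with H3K18ac, against 11.1 and 31.2% with H4K12ac, and the sites overlapped. The promoter share was highest among the strongest regions of each library. In the 1000 strongest regions it was 56.5 and 46.0% with H3K18ac, against 39.8 and 43.8% with H4K12ac, and in ranks 11001 to 11680 it was 43.97 and 33.1% against 16.8 and 25.6%. In every bin of 1000 ranks both H3K18ac libraries stood above both H4K12ac libraries. With 2000 regions per library the difference was 9.83 points and with 5000 it was 10.7.

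**Figure D2:**
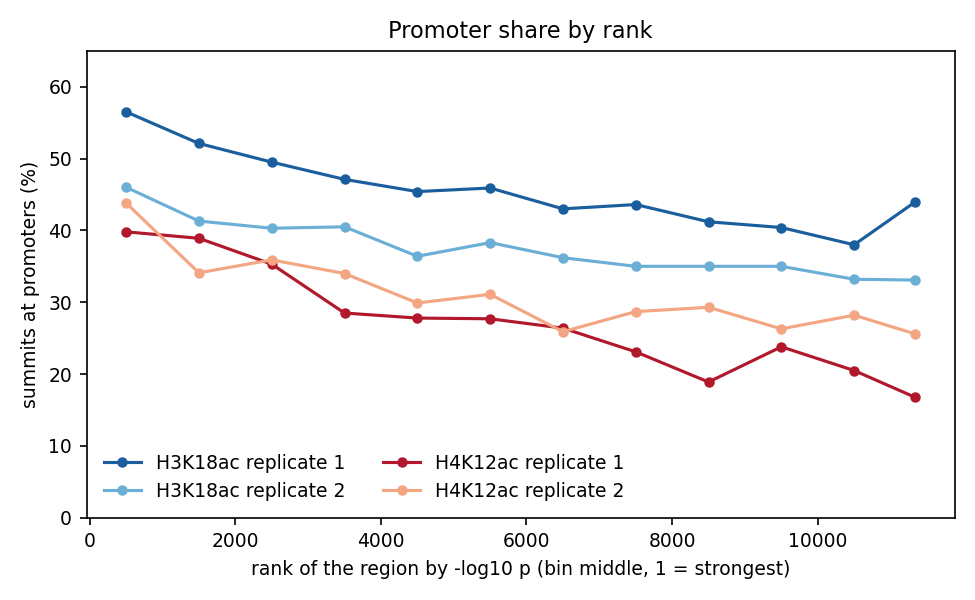
The share of summits at promoters (%, vertical axis) is plotted against the rank of regions by −log10 p (horizontal axis, bins of 1000 with a shorter last bin), 1 line per NaBu library. All lines are highest at the left and both H3K18ac lines stay above both H4K12ac lines, with 56.5% in the first and 43.97% in the last bin of H3K18ac replicate 1 and 39.8 and 16.8% in H4K12ac replicate 1.

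Around the starts of protein-coding genes both acetylations had summits on either side of the start and a dip just upstream of it. In the 200 bp upstream of the start lay 3.02 and 2.81% of H3K18ac summits and 2.19 and 2.06% of H4K12ac summits. The next 200 bp farther upstream held 6.69 and 6.45% against 4.18 and 4.83%, and the first 200 bp downstream held 9.92 and 6.33% against 3.604 and 3.65%. The dip was thus present in all 4 libraries, and the libraries of the sites were farthest apart just downstream of the start. Of summits within 1 kb of a protein-coding start, 61.6 and 52.8% lay downstream for H3K18ac and 50.0 and 47.0% for H4K12ac.

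**Figure D3:**
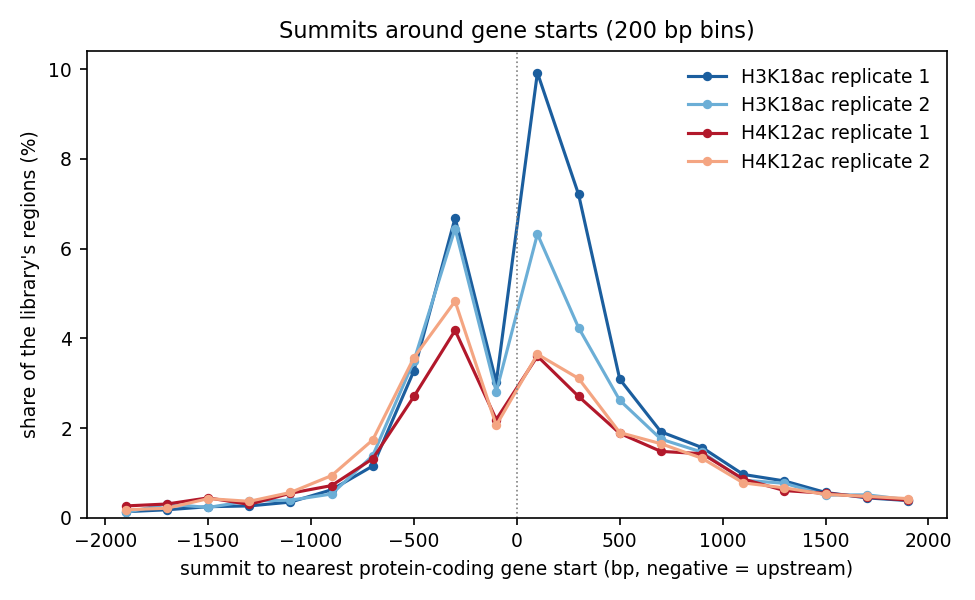
The share of each library's regions (%, vertical axis) is plotted by the distance of the summit from the nearest protein-coding gene start in bins of 200 bp (horizontal axis, negative values upstream), 1 line per NaBu library. H3K18ac replicate 1 peaks at 9.92% in the first bin downstream. H3K18ac replicate 2 peaks at 6.45% in the second bin upstream, with 6.33% in the first bin downstream. The H4K12ac lines peak at 4.18 and 4.83% in the second bin upstream.

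H3K18ac regions were also wider. Their median width was 969 and 821 bp, against 385 and 306 bp for H4K12ac, a difference of means of 549.5 bp that exceeds the spread within either pair (SD 105 and 55.9 bp, n = 2 each). Regions over 2 kb made up 13.5 and 10.7% of the H3K18ac lists and 0.796 and 0.231% of the H4K12ac lists. Width was not confined to one placement, since H3K18ac regions in gene bodies had median widths of 1092 and 960 bp against 375 and 306 bp for H4K12ac. The width difference, too, held at equal numbers of regions. Over all deposited regions it was 25 bp, with medians of 255 and 318 bp against 217 and 306 bp, and with q under 0.05 it was -16.0 bp. Together the 11680 regions covered 14.2 and 12.6 Mb for H3K18ac and 5.77 and 4.51 Mb for H4K12ac.

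At equal numbers the sequence at the summits differed in the same direction in both replicates. The GC share of 200 bp windows was 57.3 and 53.2% for H3K18ac and 49.9 and 48.3% for H4K12ac. The CpG ratio, observed over expected CpG dinucleotides, was 0.534 and 0.432 against 0.382 and 0.391. At promoters alone the GC share was 60.5 and 55.2% against 53.1 and 51.0%, and in gene bodies it was 54.9 and 52.2% against 48.6 and 46.9%, so the higher GC share of H3K18ac was also present within each of these placements. Over all deposited regions the difference in GC share was 4.34 points and that in CpG ratio 0.0148, and with q under 0.05 they were 4.14 points and -0.000207, so the CpG ratio difference was not kept. The libraries also differed in depth over control and in −log10 p at the limit as given above, and the part of these in the GC difference was not tested.

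Motifs were searched on both strands of these windows as fixed letters. The SP motif GGGCGG, bound by SP and Krüppel-like factors, was in 21.1 and 12.8% of H3K18ac windows and in 8.93 and 8.28% of H4K12ac windows. It occurs in 33.1% of the 200 bp windows at all 38899 gene starts. The AP-1 motif TGANTCA, bound by FOS and JUN dimers, went the other way, with 3.52 and 3.92% for H3K18ac and 5.55 and 5.58% for H4K12ac, beside 5.32% of gene starts. The ETS motif CCGGAAG was in 3.41 and 2.68% against 1.95 and 1.80% (7.12% of gene starts). The NRF1 motif was in 0.514 and 0.308% against 0.197 and 0.163% (3.90%). The FOX motif TGTTTAC was rarer with H3K18ac, at 1.64 and 1.88% against 2.22 and 2.48% (2.07%), as was the HNF4 motif CAAAGTCCA, at 0.223 and 0.248% against 0.334 and 0.360% (0.208%). The CRE motif TGACGTCA was in 0.248 and 0.223% against 0.171 and 0.205% (1.30%). For all 7 motifs the 2 H3K18ac libraries lay on one side of the 2 H4K12ac libraries. Over all placements together, the SP, ETS, NRF1 and CRE letters were thus more frequent at H3K18ac summits. The AP-1, FOX and HNF4 letters were more frequent at H4K12ac summits. The CRE letters do not contain the AP-1 letters. With q under 0.05 the NRF1 and CRE differences turned, to -0.0440 and -0.143 points, and over all deposited regions CRE turned (-0.0158). The other 5 motifs kept the direction of their mean difference under both. For ETS it shrank from 1.17 to 0.164 points with q under 0.05 and 0.234 over all deposited regions, and the libraries of the sites overlapped. Within gene bodies the AP-1 motif was in 4.28 and 4.51% of H3K18ac windows and in 6.38 and 6.26% of H4K12ac windows. At promoters alone the CRE letters went the other way, with 0.357 and 0.273% for H3K18ac against 0.373 and 0.521% for H4K12ac. In gene bodies CRE was in 0.160 and 0.183% against 0.102 and 0.0534%.

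Since 2 libraries against 2 cannot reach a small p, the difference between the sites was also tested over 3 conditions, NaBu, untreated and NaPr, with 12 libraries cut to the same 11680 regions and permuted within condition (exact permutation test, two-sided, smallest p 0.00926). In untreated cells the promoter share was 57.6 and 59.5% with H3K18ac, against 51.4 and 51.7% with H4K12ac, and 54.5 and 36.1% against 21.5 and 16.9% in NaPr. The mean difference over conditions was 15.1 points (permutation p = 0.00926, adjusted 0.0120 over 13 properties). The gene body share differed by -12.4 points and the width by 575 bp, with the same p-values. GC share (6.09 points), CpG ratio (0.127) and the SP (10.7 points), ETS (1.11), NRF1 (0.205), AP-1 (-1.52) and FOX (-0.62) motif shares also gave an exact p of 0.00926 (adjusted 0.0120). The intergenic share (-2.76 points, exact p = 0.0463, adjusted 0.0502) missed the threshold after adjustment and the CRE motif share (0.0114 points) had an exact p of 0.704. HNF4 (-0.0642 points) had an exact p of 0.0185 (adjusted 0.0219). With NaBu and untreated libraries alone, the smallest adjusted p was 0.0602. With all deposited regions the calls for promoter (4.23 points, exact p = 0.287, adjusted 0.339), gene body and width (adjusted exact p = 0.120 each), CpG ratio (0.103), ETS and NRF1 (0.0602 each) and HNF4 (0.361) were lost, and those for GC share and the AP-1, SP and FOX motifs were kept (0.0301 each).

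The difference between the sites in NaBu was set against that in untreated cells, which asks whether butyrate moved the sites apart. The promoter share differed by 12.2 points in NaBu and 7.02 in untreated cells, a change of 5.21 points (exact permutation p = 0.667, 36 arrangements). The width difference was 549.5 bp in NaBu and 486.5 bp in untreated cells (exact p = 1.0). No property gave an exact p under 0.0556, the smallest possible here. This test cannot decide whether the sites moved apart. Condition labels were permuted within each site, and promoter share and width were lower in NaBu than in untreated cells at both sites. The permuted values thus hold that shared change as well as the spread between libraries. Condition also coincided with run batch.

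**Figure D4:**
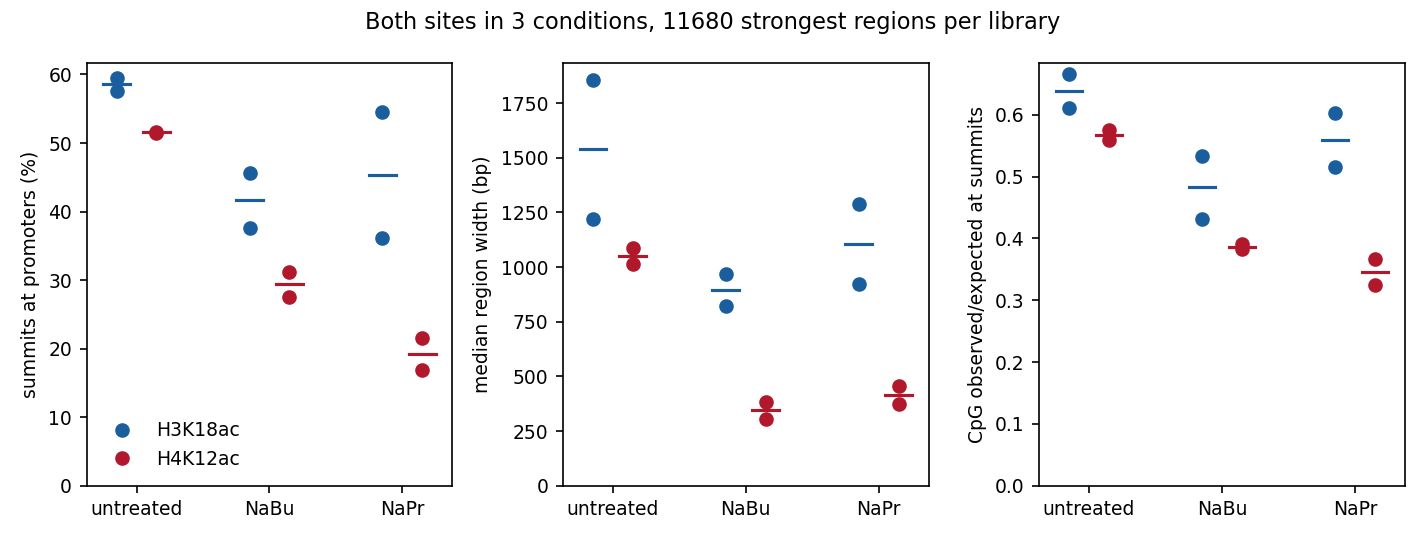
Points are single libraries of H3K18ac and H4K12ac in untreated, NaBu and NaPr cells, and bars are the means of 2 libraries, for the share of summits at promoters (%), the median region width (bp) and the CpG ratio at summits. In every condition both H3K18ac points lie above both H4K12ac points, in NaBu at 45.6 and 37.6% against 27.6 and 31.2% for promoters.

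The lists overlapped more within H3K18ac than within H4K12ac. The shared length over the joint length of 2 lists was 0.516 for the H3K18ac pair and 0.311 for the H4K12ac pair, and between 0.218 and 0.292 for the 4 pairs across sites. Of H4K12ac replicate 2 regions, 68.1 and 70.8% touched a region of H3K18ac replicates 1 and 2, whereas 51.6% touched a region of H4K12ac replicate 1. The regions of the weakest library thus fell more often on the wide H3K18ac regions than on the narrow regions of its own replicate.

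Merging the 4 lists gave 20356 union regions, of which 3920 were in all 4 libraries. H3K18ac-only regions, held by both H3K18ac replicates and neither H4K12ac replicate, numbered 1780 (8.74% of the union), and H4K12ac-only regions numbered 356 (1.75%). Of the H3K18ac-only regions, 45.3% lay at promoters, 38.0% in gene bodies and 16.7% between genes. Of the H4K12ac-only regions, 23.6% lay at promoters, 55.9% in gene bodies and 20.5% between genes. Of the regions in all 4 libraries, 40.1% lay at promoters. The median width was 985.5 bp for H3K18ac-only, 470.5 bp for H4K12ac-only and 1780 bp for regions in all 4. The GC share was 58.5% and 45.0% for the one-sided sets, the SP motif was in 20.7 and 3.93% and the AP-1 motif in 3.20 and 8.99%. These counts describe sets picked from the same lists, and no test was made of them. Beside them, 2.02% of H3K18ac-only and 7.02% of H4K12ac-only regions overlapped a region of the NaBu input list. The share was 8.06% for regions in all 4 libraries and 3.05% for the other union regions. With regions over the input list left out beforehand the counts were 1750 and 444.

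One-sided did not mean free of the other acetylation. Of the 1780 H3K18ac-only regions, 603 touched no region in either full H4K12ac list. Of the 356 H4K12ac-only regions, 23 touched no region in either full H3K18ac list, and the other regions were marked there at lower rank. Absence from the H4K12ac replicate 2 list follows from being H3K18ac-only, here and for summits below, since its full list holds no further regions. The check on H3K18ac-only sets thus rested on H4K12ac replicate 1, and the full lists differ in length. Leaving out 1 library, so that 1 replicate defines its site, gave between 2714 and 4587 H3K18ac-only regions. The H4K12ac-only regions then numbered 552 and 719 without H3K18ac replicates 1 and 2, and 2645 and 4022 without H4K12ac replicates 1 and 2, where they outnumbered the 3002 H3K18ac-only regions in the last case.

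Among genes, 6514 and 5161 had a promoter summit in the H3K18ac replicates and 3819 and 4053 in the H4K12ac replicates, of 38899 genes. All 4 libraries held 2168 promoters. H3K18ac-only promoters numbered 953 (2.45% of genes) and H4K12ac-only promoters 131 (0.337%), of which 673 and 83 were of protein-coding genes. In gene bodies the counts were nearer to each other, with 320 H3K18ac-only genes (0.823%) and 238 H4K12ac-only genes (0.612%). Of one-sided genes, the H3K18ac share was 87.9% at promoters and 57.3% in gene bodies. With 1 library left out, H3K18ac-only promoters (1396 to 2509) still outnumbered H4K12ac-only promoters (252 to 565). In gene bodies the order turned without H4K12ac replicate 1 (597 H3K18ac-only and 757 H4K12ac-only genes) and without H4K12ac replicate 2 (592 and 1486), and stayed without H3K18ac replicates 1 and 2 (639 and 330, 641 and 429). In the full lists of the other site, 344 of the 953 H3K18ac-only promoters and 23 of the 131 H4K12ac-only promoters had no summit at all. For the H3K18ac-only promoters this again rested on H4K12ac replicate 1.

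Summits place each region at 1 base, and a wide H3K18ac region can cover a promoter with its summit elsewhere. When any part of a region touching the promoter window counted (chosen after seeing the data), 1102 promoters were H3K18ac-only and 104 were H4K12ac-only, sharing 909 and 96 with the sets above. Of the 131 H4K12ac-only promoters, 5 were touched by no region in either full H3K18ac list, among them those of ABL2, COL1A2, GIT2 and TTC26. The same count for H3K18ac-only promoters was 311 of 953. The full lists of the sites differ in length, so these counts are not like for like.

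The limit of 11680 regions set who was in these lists. ZBTB25 was the H3K18ac-only gene nearest the limit, at rank 11676 in replicate 2 (fold enrichment 6.07) and 2204 in replicate 1 (17.4), and MAVS fell just outside, at rank 11710 in replicate 2 (6.07). For H4K12ac, ZNF589 was just inside at rank 11633 in replicate 1 (fold 5.03) and NMNAT3 just outside at 11681 (5.03). The limit of H4K12ac replicate 1 fell among regions with the same −log10 p (5.995) and fold (5.03). Such ties were kept in order of chromosome and position, which carries no strength. SAR1A, ATF7 and, in its body, MYO15A, all H3K18ac-only below, had summits with these values there, at ranks 12182, 12350 and 12669. Most one-sided promoters were not at the top of their lists, with median ranks of 5858 and 7407 for H3K18ac and 5852 and 7455 for H4K12ac.

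The strongest H3K18ac-only promoter belonged to RPS9, a protein of the small ribosomal subunit (chr19:54200809-54249003, plus strand). Its region had a fold enrichment of 16.1 and 14.2 in the H3K18ac replicates, with the summit 178 and 177 bp downstream of the start, and neither full H4K12ac list had a region touching the promoter. PIDD1, a death domain protein of the PIDDosome, and RPLP2, a protein of the ribosomal stalk, are divergent neighbours (chr11:799179-809753 and chr11:809965-812880) that shared 1 region, with folds of 18.4 and 11.8 and no H4K12ac region touching either promoter. These 3 of the 12 strongest promoters were touched by no region of the full H4K12ac lists, although H4K12ac replicate 2 had a summit in the body of RPS9.

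The other 9 of the 12 had a weak region in H4K12ac replicate 1 and no summit in replicate 2. FXYD2, a regulatory subunit of the sodium-potassium pump whose window is shown above, had folds of 17.1 and 17.7 for H3K18ac and 3.91 in H4K12ac replicate 1. NFYA, the DNA-binding partner in the CCAAT-box factor NF-Y, had 17.1 and 17.2 against 3.49, and YWHAZ, the adaptor 14-3-3 zeta, had 19.5 and 18.6 against 3.05. For these genes the H3K18ac replicates lay close together. Fold enrichment depends on the depth of a library and its control, so the folds of the sites are set side by side without a test. ZFAND5, a zinc finger protein of protein degradation, had 21.1 and 15.9 against 3.97, and SAR1A, the GTPase of COPII vesicles, had 20.5 and 16.1 against 5.03. AMOTL2, a junction scaffold of the Hippo pathway, had 18.3 and 16.8 against 4.03, and ATF7, a bZIP factor that pairs with AP-1 proteins, had 13.8 and 14.5 against 5.03. CDK19, a Mediator kinase, had 8.94 and 14.0 against 3.98. KLK1, tissue kallikrein, had 14.7 and 13.5 against 3.48. At YWHAZ a further H4K12ac replicate 1 region of fold 6.43, with its summit 1033 bp from the start, touched the promoter window within the equal numbers.

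**Figure D5:**
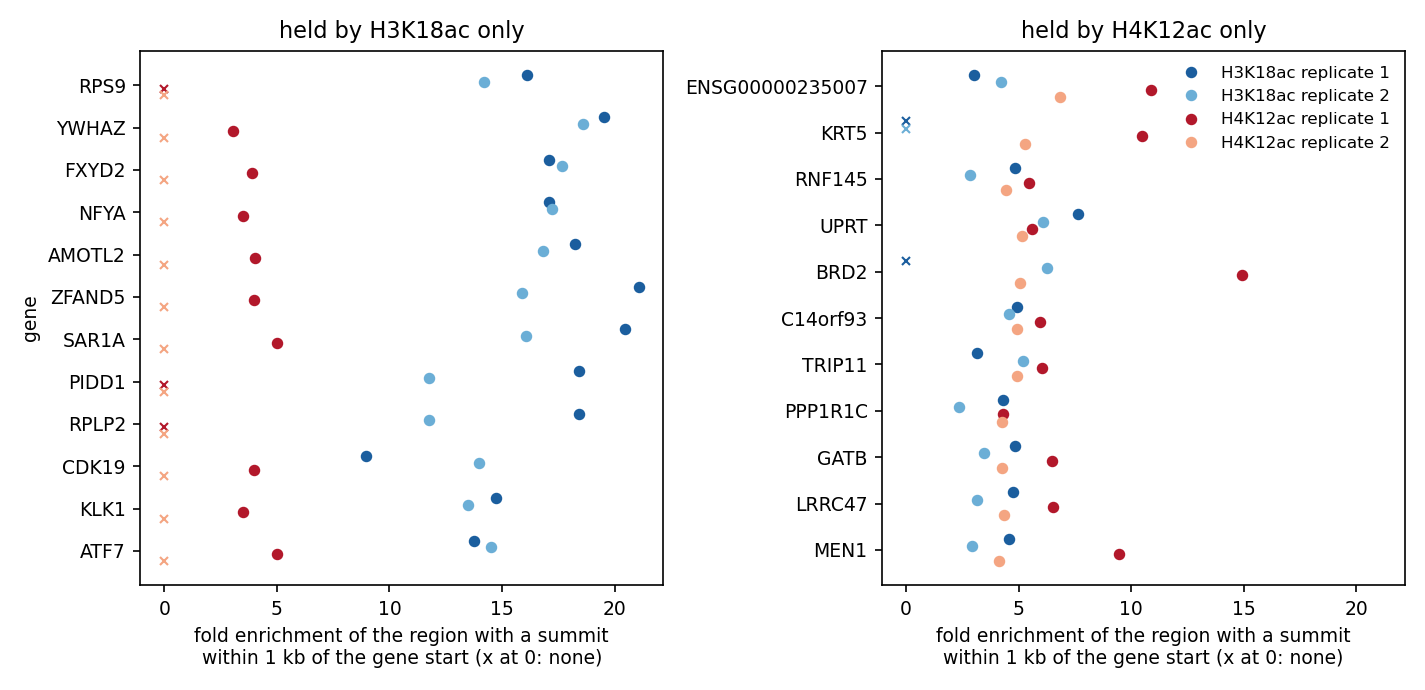
Fold enrichment (horizontal axis) of the region with a summit within 1 kb of the gene start is shown for the strongest promoters of each kind (1 is left out on the right), 1 point per NaBu library, with a cross at 0 where the full list has no such region. On the left the H3K18ac points lie between 8.94 and 21.1 and the H4K12ac points at 5.03 or below, and on the right the H3K18ac points, where present, lie between 2.37 and 7.63.

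The H4K12ac-only promoters were less clear-cut, because 5 of the 12 strongest lay under an H3K18ac region whose summit was elsewhere. KRT5, a keratin of basal epithelia (chr12:52514575-52520530, minus strand), had H4K12ac folds of 10.5 and 5.27 with summits at -169 and -658 bp from the start, and no H3K18ac summit in its promoter. H3K18ac regions of 4786 and 4674 bp, with folds of 22.5 and 14.0, covered part of the same promoter, and their summits lay at -1961 and -1718 bp. BRD2, a bromodomain protein that binds acetylated H4 (chr6:32968594-32981505, plus strand), had H4K12ac folds of 14.9 and 5.04 with summits 869 and 107 bp inside the gene. H3K18ac regions of fold 15.4 and 27.2 touched its promoter with summits 1915 and 1500 bp downstream. H3K18ac replicate 2 also had a weaker region with its summit in the BRD2 promoter (fold 6.26, rank 12714), and the H4K12ac regions of the replicates did not overlap each other there. At KRT5 and BRD2 these H4K12ac summits lay nearer to the start than those of the strong H3K18ac regions. TRIP11, a Golgi tether, was H4K12ac-only at its promoter (folds 6.05 and 4.94, summits 972 and 987 bp inside) and H3K18ac-only in its body (12.6 and 13.2), although the H3K18ac summit of replicate 2 lay 1061 bp from the start, just past the 1 kb limit. The body region of TRIP11 overlapped an input region. RNF145, an E3 ligase of the endoplasmic reticulum, had 5.45 and 4.42 and was touched at equal numbers by a region of H3K18ac replicate 2 (fold 7.61). ENSG00000235007 on chromosome 9 had 10.9 and 6.82, overlapped an input region and was touched by H3K18ac regions of fold 37.3 and 35.9.

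The remaining 7 of the 12 were touched by no H3K18ac region at equal numbers, but had one in both full lists. Of the 12, 7 stayed one-sided with a promoter window of 3 kb, 3 with 2000 regions per library, 1 with q under 0.05 and 1 over all deposited regions. Of the 12 H3K18ac-only promoters, 10, 9, 9 and 3 did. MEN1, which encodes the tumour suppressor menin, had H4K12ac folds of 9.47 and 4.13 and H3K18ac folds of 4.56 and 2.95 at ranks 36900 and 55946. GATB, a subunit of a mitochondrial transfer RNA amidotransferase, had 6.47 and 4.28 against 4.83 and 3.48, and LRRC47, a leucine-rich repeat protein, had 6.51 and 4.35 against 4.77 and 3.15. UPRT had H4K12ac folds of 5.61 and 5.13. Its H3K18ac folds were 7.63 and 6.08 at ranks 11889 and 12072, just outside the limit. PPP1R1C, an inhibitor of protein phosphatase 1, had 4.30 and 4.27 against 4.33 and 2.37, and C14orf93 had 5.94 and 4.91 against 4.94 and 4.56.

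In gene bodies the strongest H3K18ac-only gene was SRMS, a SRC-related tyrosine kinase (chr20:63538489-63547749, minus strand), with folds of 20.1 and 16.8 for H3K18ac and 4.72 in H4K12ac replicate 1. RIPOR1 had 17.8 and 15.8 against 3.54, VPS28, an ESCRT subunit, 16.0 and 17.1 against 3.54, and SLC35F3, a thiamine carrier, 12.6 and 13.3 against 3.75. MYO15A, an unconventional myosin, had 13.4 and 12.97 against 5.03. None of these had a summit in the body in H4K12ac replicate 2. The strongest H4K12ac-only genes were HNRNPA2B1, an RNA-binding protein, with H4K12ac folds of 6.19 and 5.14, SPTLC1, a subunit of serine palmitoyltransferase, with 5.13 and 6.66, and ANKRD17 with 5.62 and 4.92. The ANKRD17 values come from separate regions of the gene, 1261 and 35875 bp from its start. SPTLC1 had H3K18ac folds of 5.77 and 5.49 at lower rank, and HNRNPA2B1 had 2.34 in H3K18ac replicate 2 alone. BHLHE40, a circadian and hypoxia-response repressor, had 6.69 and 4.94 in separate regions 5361 and 4336 bp from the start, and SERPINB8 with its neighbour HMSD shared a region of 7.74 and 5.33. BHLHE40 and SERPINB8 had no H3K18ac summit in the body in either full list, and whether a wide region reached in was not tested.

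Between genes, the strongest H3K18ac-only regions lay 3884 bp from the start of FBXL6 (folds 17.4 and 15.3), 5721 bp from FOXJ2 (14.8 and 7.89) and 9620 bp from a lncRNA gene on chromosome 21 (15.9 and 13.2). Each touched a region in the full list of H4K12ac replicate 1 and none in that of replicate 2. The strongest H4K12ac-only regions lay 23052 bp from LINC02563 (7.19 and 5.55), 3894 bp from a lncRNA gene on chromosome 7 (5.91 and 4.86) and 2129 bp from one on chromosome 11 (4.85 and 5.03), and each touched a region in both full H3K18ac lists.

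Genes of the acetylation machinery and other groups were counted with the same rule. Over all protein-coding genes 3.36% were H3K18ac-only and 0.414% H4K12ac-only at promoters, and 7.66% were held by all 4 libraries. Of 22 acetyltransferases and their partners, 2 were H3K18ac-only (9.09%). These were KAT5, the catalytic subunit of the NuA4 complex that acetylates H4, with folds of 24.3 and 8.78, and ING3, a subunit of the same complex, with 19.9 and 6.35. Neither had an H4K12ac summit at its promoter in the full lists. TAF1, BRPF1, NCOA3, ING1 and ING4 were held by all 4 libraries, and EP300 and CREBBP, the genes of p300 and CBP, by none at equal numbers.

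Of 18 deacetylases (zinc-dependent HDACs, some of which butyrate can inhibit, and sirtuins), 2 were H3K18ac-only (11.1%). These were HDAC5 with folds of 13.3 and 8.74 and HDAC3 with 10.7 and 7.55. HDAC3 had an H4K12ac replicate 1 summit of fold 5.03 at rank 11814, tied with the last region kept, so its call rested on tie order. HDAC6 (20.0 and 17.6 against 7.99 and 3.90) and SIRT5 (19.1 and 10.1 against 7.99 and 4.01) were held by all 4 libraries, and HDAC2 had no promoter summit in any list. Of 26 bromodomain and YEATS readers, BPTF (11.2 and 9.41), BAZ2A (8.43 and 8.30) and BRD9 (10.8 and 7.70) were H3K18ac-only (11.5%) and BRD2 was H4K12ac-only with the reservation above. BAZ1A was H4K12ac-only in its body (7.50 and 3.21), with separate regions 59501 and 2350 bp from the start in the replicates.

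Of 60 cytosolic ribosomal protein genes, 7 were H3K18ac-only (11.7%) and 1 was H4K12ac-only. They were RPS9 and RPLP2 as above, RPL12 (9.12 and 10.1), RPS13 (11.5 and 6.04), RPS28 (22.2 and 8.06), RPSA (9.86 and 6.52) and RPS6 (7.76 and 5.83). RPS28 shared its region with NDUFA7, the one H3K18ac-only gene of 43 complex I and V subunits. RPL34 was the H4K12ac-only one, at 5.14 and 3.43, but H3K18ac folds of 5.95 and 5.71 stood at lower rank and its region overlapped the input list. Among 17 Krüppel-like factors, which bind the GC-rich motif counted above, KLF12 (9.37 and 6.85), KLF11 (7.65 and 6.74) and KLF3 (10.97 and 6.63) were H3K18ac-only (17.6%) and none was held by all 4. For each of these 3 genes the regions of the replicates did not overlap.

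Among AP-1 genes 6 of 16 (37.5%) were held by all 4 libraries and 1, ATF7, was H3K18ac-only. JUN had folds of 23.97 and 23.3 for H3K18ac and 8.38 and 4.83 for H4K12ac. FOSL2 had 23.3 and 19.4 against 9.78 and 6.23, FOSB 34.0 and 26.3 against 6.05 and 5.16, and JUND 27.2 and 20.1 against 6.31 and 5.44. The promoters of these genes were thus shared by both acetylations, while matches to the AP-1 letters were more frequent at H4K12ac summits.

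In the cell cycle and replication lists, H3K18ac-only promoters included those of the proliferation marker MKI67 (9.88 and 9.68), the CDK inhibitor CDKN2D (7.45 and 6.76), the kinase activator DBF4 (9.37 and 9.89), the origin-binding ORC1 (6.86 and 7.91) and the clamp loader subunit RFC2 (14.7 and 6.29). That is 3 of 39 (7.69%) and 3 of 37 (8.11%), with no H4K12ac-only gene in either list. RFC2 had an H4K12ac replicate 1 summit of fold 5.03 at rank 11976, tied with the last region kept, so its call rested on tie order. SLC16A3, a lactate transporter, was the one H3K18ac-only promoter of 34 in short-chain acyl-CoA metabolism (13.8 and 8.58). The proteasome, Wnt, TGF-beta, intestinal transcription factor and colon marker lists had no one-sided promoter, and 41 olfactory receptor genes had no promoter or gene body summit at equal numbers. In gene bodies, 1.25% of all protein-coding genes were H3K18ac-only and 0.923% H4K12ac-only. Of the lists, short-chain acyl-CoA metabolism had 3 H3K18ac-only bodies of 34, among them those of the electron carrier ETFB (8.34 and 7.96) and the ketone body enzyme BDH1 (8.03 and 5.46, in separate regions 18017 and 52428 bp from the start). The replication clamp PCNA (10.7 and 7.75) and the TGF-beta inhibitor SMAD7 (9.54 and 7.63) were also H3K18ac-only there, PCNA with no H4K12ac summit in the body in either full list. H4K12ac-only bodies were those of SMAD2 (5.52 and 3.46) and ACVR1 (5.67 and 3.62) of the TGF-beta pathway, NKD1 of the Wnt pathway (5.83 and 3.44) and the intestinal factor PROX1 (5.56 and 3.07), each with H3K18ac summits at lower rank. The replicates shared a region in SMAD2 and marked separate regions in ACVR1, NKD1 and PROX1. COL1A2, a collagen gene of fibroblasts, was H4K12ac-only at its promoter (6.02 and 3.74) with a region over the input list.

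The start sequences of one-sided genes were read in 200 bp windows at the annotated starts, which the rule did not use. In these the GC share of protein-coding genes was 67.1% for 673 H3K18ac-only promoters, 63.4% for 83 H4K12ac-only promoters, 63.5% for 1534 promoters in all 4 libraries and 60.9% for 14148 in none. The CpG ratio was 0.891, 0.861, 0.867 and 0.692 in the same order. The one-sided promoters of both kinds were thus CpG-rich compared with unmarked ones. A second gene start on the opposite strand within 1 kb upstream was present at 29.4% of H3K18ac-only, 16.9% of H4K12ac-only, 31.2% of fully shared and 10.4% of unmarked promoters. The SP motif was in 63.9, 45.8, 55.3 and 41.7% of these windows.

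The one-sided promoters were then read in the other libraries at the same number of regions. The 953 H3K18ac-only promoters were held in 81.1 and 79.4% of cases by untreated H3K18ac, and in 63.5 and 65.7% by untreated H4K12ac, beside 22.5 and 22.5% and 18.1 and 18.3% of all genes. In NaPr, H3K18ac held 69.6 and 47.2% of them, beside 19.6 and 13.4% of all genes. H4K12ac in NaPr held 23.2 and 15.5% of them, beside 7.70 and 6.12% of all genes. Most H3K18ac-only promoters of NaBu cells were thus held by each H3K18ac and each H4K12ac library of untreated cells. Both replicates of H3K18ac and neither of H4K12ac held 90 of the 953 in untreated cells and 175 of them in NaPr, whereas the reverse pattern was found for 9 and 1. These were 9.44 and 18.4% of the set, beside 2.99 and 4.602% of all genes that were H3K18ac-only in these conditions, and 0.944 and 0.105%, beside 0.689 and 0.144% of all genes that were H4K12ac-only.

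The 131 H4K12ac-only promoters were held at like shares by both marks in untreated cells, with 42.0 and 41.2% for H3K18ac and 42.7 and 39.7% for H4K12ac. Of them, 3 were H4K12ac-only in untreated cells and 5 in NaPr, and 10 and 9 were H3K18ac-only there. The shares were 2.29 and 3.82% and 7.63 and 6.87%, against the all-gene shares of each pattern just given. The H4K12ac-only promoters were held by the butyryl marks in 29.0 and 34.4% (H3K18bu) and 42.7 and 30.5% (H4K12bu), beside 8.42 and 5.84% and 7.48 and 5.39% of all genes. The H3K18ac-only promoters were held in 22.6 and 8.18% and in 11.8 and 5.14%. The share was thus higher for the H4K12ac-only promoters in each of the 4 butyryl libraries, whose H4K12bu lists held 9642 and 8158 regions in all. The input list held 1.05% of the H3K18ac-only and 2.29% of the H4K12ac-only promoters, beside 0.776% of all genes.

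One-sided gene bodies were followed in the same way. Of the 238 H4K12ac-only genes, 11 were H4K12ac-only in untreated cells and 29 in NaPr, against 3 and 2 with the reverse pattern. Among all genes 0.663 and 1.74% were H4K12ac-only in the body and 0.625 and 0.815% H3K18ac-only. Of the 320 H3K18ac-only genes, 20 and 25 kept their side and 1 and 3 had the reverse pattern. Beside these counts, the NaBu input list had a summit in the body of 34.5% of the H4K12ac-only genes and 16.6% of the H3K18ac-only genes, against 13.4% of all genes. With regions over the input list left out beforehand, 313 bodies were H3K18ac-only and 234 H4K12ac-only. Over the conditions, H3K18ac-only promoters outnumbered H4K12ac-only promoters in untreated cells (1164 and 268), NaBu (953 and 131) and NaPr (1790 and 56), while gene bodies gave 243 and 258, 320 and 238, and 317 and 677.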

How the data were processed

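ChIP-seq regions of SW480 cells were analysed from the lists the authors deposited, 1 per library and not pooled. Per the methods, reads were aligned to GRCh38 with Bowtie2 and regions were called with MACS2 with input as control. The submitters' processing notes name bcl2fastq 2.17.1, cutadapt 1.8.1, Bowtie2 2.3.1 and MACS2 2.1.0. Each deposited region carries a fold enrichment (a ratio of pileup to local background) and −log10 p and −log10 q values, which were used to describe, rank or filter regions within a list. Read counts were not used here. Regions were ranked by −log10 p, with ties ordered by fold, then chromosome and position. They were limited to 11680 per library and placed by summit on GENCODE 44 genes (20033 protein-coding, 18866 lncRNA). All 277141 regions of the 4 lists lay inside the hg38 chromosome lengths. Windows were read from the hg38 genome, and none was taken from chromosome 8. Groups were compared by exact permutation over libraries, with Benjamini-Hochberg adjustment over 13 properties. The 12 promoter genes, 6 gene-body genes and 3 intergenic regions named per site were those with the highest lower −log10 p of both replicates, and one-sided list members were named up to 4 per list, with RPS6, RPS28 and RPSA and the members held by all or none added after their values were seen. The libraries, 18 gene lists and rules were chosen with earlier results of these data known. The steps were tested on simulated lists. Python 3.11.15, NumPy 2.4.6, SciPy 1.17.1 and pandas 2.3.3 were used. Values for some genes of the named sets and lists are not reported here.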

Additional observations from a re-analysis of the deposited data

Results flagged for a closer look

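The share of summits with the CRE motif TGACGTCA was flagged because the sites differed in opposite directions in NaBu and in untreated cells. In NaBu it was 0.248 and 0.223% for H3K18ac and 0.171 and 0.205% for H4K12ac, a difference of 0.0471 points, and in untreated cells it was 0.163 and 0.188% against 0.214 and 0.265%, a difference of -0.0642 points. The difference between these was 0.111 points (exact permutation p = 0.0556, the smallest of 36 arrangements, adjusted 0.722), and the NaBu difference turned to -0.03 points with 5000 regions per library.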

How the results depend on the processing

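Of 293 values under alternatives, 51 moved, 19 became weaker, 1 became stronger and 14 reversed. The other 208 kept their direction and side of the threshold or, for counts, stayed within 1.5 times. The causes of the changes were not tested. The exact p of the NaBu differences cannot be small with 2 libraries per site, so only their direction could change. The 208 include the replicate block values (below), which were unchanged by construction. Over all deposited regions, whose numbers differ between libraries, the NaBu differences (H3K18ac minus H4K12ac) reversed for promoter (-1.90 points), intergenic (2.66) and CRE motif share (-0.0158), and one-sided counts (H3K18ac-only, then H4K12ac-only) were 3476 and 39 at promoters, 1242 and 46 in bodies and 15462 and 138 for regions. With q under 0.05 the reversed differences were promoter -3.96, gene body 1.15, intergenic 2.80, width -16.0 bp, CpG ratio -0.000207, NRF1 -0.0440 and CRE -0.143, and the counts were 4478 and 8, 2239 and 9, and 14515 and 4. With 5000 regions per library CRE was -0.0300 and the counts that moved were 451 at promoters for H3K18ac, 151 and 120 in bodies and 670 and 219 for regions. With 2000 regions the counts were 197 and 64, 67 and 60, and 251 and 122. With protein-coding genes only, 83 promoters were H4K12ac-only.

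Over NaBu and untreated cells alone every property but intergenic and CRE share lost its call, since the smallest exact p of that design is 0.0556. The values were promoter 9.62, gene body -7.05, width 518 bp, GC 5.27, CpG ratio 0.0837, AP-1 -1.32, SP 8.90, ETS 0.858, NRF1 0.171, FOX -0.548 and HNF4 -0.0878, which is larger than over 3 conditions, and CRE reversed (-0.00856). Over 3 conditions with all deposited regions the weaker values were promoter 4.23, gene body -8.94, width 68.3 bp, CpG ratio 0.0551, ETS 0.442, NRF1 0.0588 and HNF4 -0.0155, and intergenic reversed (4.70). With 5000 regions HNF4 was weaker (-0.0500), CRE reversed (-0.0500) and intergenic became stronger (-3.97).

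Leaving out 1 library gave H3K18ac-only counts of 1396 to 2509 at promoters, 592 to 641 in bodies and 2714 to 4587 for regions, and H4K12ac-only counts of 252 to 565, 330 to 1486 and 552 to 4022. The NaBu differences kept their direction, with promoter 8.25 to 16.2 points, gene body -11.7 to -7.06, intergenic -4.55 to -1.19, width 475.5 to 623.5 bp, GC 4.14 to 8.20, CpG ratio 0.0449 to 0.147, AP-1 -2.05 to -1.64, SP 4.24 to 12.5, ETS 0.805 to 1.53, NRF1 0.128 to 0.334, CRE 0.0300 to 0.0642, FOX -0.723 to -0.458 and HNF4 -0.124 to -0.0985.

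Deviations of same-numbered libraries, counted as held or not held, had a correlation of 0.00275 over 20356 regions. Such calls depend on the limit in each list, so they cannot show whether same-numbered libraries shared a culture or preparation. A replicate block leaves the promoter difference (12.2 points) and the counts unchanged by construction, so it was no check of them.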

Other observations

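H3K18ac-only and H4K12ac-only regions were spread differently over some chromosomes. Chromosome 19 held 8.48% of the 1780 H3K18ac-only regions and 4.49% of the 356 H4K12ac-only regions, chromosome 17 held 6.80 and 3.09%, chromosome 22 held 3.54 and 1.40%, and chromosome 16 held 3.76 and 0.843%. Chromosome 7 held 6.01 and 10.7%, and chromosome 5 held 3.82 and 6.74%. The full sets at equal numbers differed less, with 7.54 and 7.54% of H3K18ac regions and 7.11 and 6.52% of H4K12ac regions on chromosome 19. These chromosomes were chosen after their values were seen, the smaller set is few regions per chromosome, and no test was made. Tied regions at the limit of H4K12ac replicate 1 were kept in chromosome order, and the part of this in these shares was not tested.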
